A study of Homo sapiens with 48 samples.

Results

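In ASPC1, an established human pancreatic ductal adenocarcinoma line, 13425 of the 63955 deposited H3K9me3 broad peaks (21.0%) lay outside exons, away from zinc finger genes, and were called only in cells carrying the hairpin against ZNF274. They were chosen by 3 criteria: the peak list names shZNF274 as the sole group with the call, the authors' annotation class is intron or Intergenic, and no base overlaps the span of a gene named ZNF followed by digits. Of the 14065 peaks called only with shZNF274, 13455 had these classes, and 30 of those (0.223%) were set aside because they overlapped a ZNF gene. The group calls of the peak list made the selection, so everything drawn from that list is a description and carries no test. The same criteria applied to the other group calls gave 8266 regions called only with the control hairpin (shCTRL) and 39196 called in both groups, and these served for comparison.

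CUT&RUN, in which an antibody directs a nuclease to cut chromatin around its target, was performed on ASPC1 with shCTRL or shZNF274 after 9 days of doxycycline at 1 µg/ml, in 3 samples for each hairpin and antibody (H3K9me3, ZNF274 and IgG). Control and knockdown cells thus both received doxycycline. Gene counts came from 30 RNA-seq libraries, 3 a group and 31415743 to 43383141 counts each. ASPC1 and CFPAC1 cells received siCTRL, siZNF274, DMSO or AZA (azacitidine, 5 µM, which blocks DNA methylation), and Panc3.27 cells were given an empty vector or one that overexpresses ZNF274 (OE). CFPAC1 and Panc3.27 are also pancreatic ductal adenocarcinoma lines, and no peaks of theirs were analysed here. The hairpin cells have no RNA-seq among these groups, so RNA values come from other perturbations than the one that defined the regions, and each line is 1 genetic background.

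H3K9me3, trimethylation of lysine 9 on histone H3, marks silent chromatin and is placed by enzymes such as SETDB1 and SUV39H1. It covers repeats, lineage genes kept off and clusters of zinc finger genes, often in broad domains, and it can lie in the introns of transcribed genes. ZNF274 is a KRAB zinc finger protein that binds the ends of zinc finger genes and recruits SETDB1 through the corepressor TRIM28. The criteria leave those known targets out, and what remains is introns and intergenic sequence.

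A few of these regions covered whole transcription start windows or microRNA hairpins, and their sequences are shown to give the regions a concrete content. The 250 bases before the RefSeq start site of 3 genes (RefSeq, GRCh38.p14, gene strand) are printed 5′ to 3′ with each CG dinucleotide in capitals. SLC36A1, an amino acid transporter, was transcribed in ASPC1, and its window at chr5:151436796-151437045 (plus strand) has 1 CG in 250 bases. CALCR, the calcitonin receptor, was transcribed at a lower level and has 20 CG at chr7:93574725-93574974 (minus strand). RGS13, a regulator of G protein signalling, was close to 0 and has 1 CG at chr1:192635897-192636146 (plus strand).
SLC36A1: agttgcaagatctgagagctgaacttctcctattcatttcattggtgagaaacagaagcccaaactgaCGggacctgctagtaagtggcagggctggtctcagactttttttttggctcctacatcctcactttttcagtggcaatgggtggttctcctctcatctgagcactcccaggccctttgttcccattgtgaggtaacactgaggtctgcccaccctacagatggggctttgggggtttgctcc
CALCR: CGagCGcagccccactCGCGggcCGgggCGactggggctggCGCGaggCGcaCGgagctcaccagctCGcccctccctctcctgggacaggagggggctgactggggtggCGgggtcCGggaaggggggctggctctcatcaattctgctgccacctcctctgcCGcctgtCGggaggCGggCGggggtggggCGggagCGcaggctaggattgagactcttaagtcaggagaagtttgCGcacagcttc
RGS13: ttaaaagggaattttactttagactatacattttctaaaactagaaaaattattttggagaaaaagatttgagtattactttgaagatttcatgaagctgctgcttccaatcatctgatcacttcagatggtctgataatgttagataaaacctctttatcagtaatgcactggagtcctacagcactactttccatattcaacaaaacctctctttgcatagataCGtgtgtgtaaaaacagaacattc

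Of 1562 RefSeq microRNA hairpins, 4 lay wholly under these regions. MIR676 on chromosome X lay in EDA under a region of 1623 bases (70021795 to 70023417) that the authors' deposited table calls Up. MIR218-2 on chromosome 5 lay in SLIT3 under a region of 2851 bases. MIR8060 on chromosome 3 and MIR8056 on chromosome 5 lay under regions of 4870 and 918 bases outside any listed gene. The mature forms of the 2 hairpins within genes are printed in the RNA alphabet with the seed, bases 2 to 8, in capitals. No seed is shared among them. A further 7 hairpins lay wholly under shCTRL-only regions and 135 under regions called in both groups.
hsa-miR-676-5p: uCUUCAACcucaggacuugca
hsa-miR-676-3p: cUGUCCUAagguuguugaguu
hsa-miR-218-5p: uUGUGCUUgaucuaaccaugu
hsa-miR-218-2-3p: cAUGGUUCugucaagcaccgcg

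A call in only 1 group was rarely accompanied by a called difference. In the authors' deposited table, 230 of the 13425 regions (1.71%) were Up with shZNF274, 13171 (98.1%) were listed as not changed, 24 were not tested and 0 were Down. Among the 8266 shCTRL-only regions, 211 (2.55%) were Down and 0 were Up. Among the 39196 regions called in both groups, 3 were Up and 87 were Down. No source used here gives the threshold of the peak caller, and the deposited score is the same for every peak, so how close a region came to a call in shCTRL cannot be read from the list.

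The zinc finger genes that the criteria removed held few regions of this kind. The 30 peaks set aside were 0.223% of the non-exonic shZNF274-only peaks, and 1 of them was Up. The corresponding figures were 75 peaks (0.899%) of the shCTRL-only kind, 29 of them Down, and 231 (0.586%) of the kind called in both groups, 14 of them Down. With each ZNF gene extended by 10000 bases on both sides, 13403 regions stayed in the set.

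The regions were narrow. Their median width was 1783 bases (quartiles 1145 and 2632, range 199 to 18457), and together they spanned 27.6 Mb. The shCTRL-only regions had nearly the same median, 1827 bases, and the regions called in both groups a median of 5126 bases, and the upper quartile of the shZNF274-only set, 2632 bases, lay below the lower quartile of the shared set, 3367 bases. Introns and intergenic sequence gave medians of 1773.5 and 1795 bases. The 230 Up regions were narrower still, with a median of 1049.5 bases and a maximum of 2996, whereas the 211 Down regions of the shCTRL-only kind had a median of 2732 bases.

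The widest region covered 18457 bases of chromosome 17 (69165754 to 69184210, hg38) in an intron of ABCA10, a lipid transporter of the ABC family. The next was an intergenic region of 11950 bases on chromosome 3 (189500355 to 189512304), 119084 bases from the nearest listed gene. Chromosome 10 held an intergenic region of 11230 bases (4854851 to 4866080) and one of 9433 bases (5015671 to 5025103) that reached into AKR1C2, an aldo-keto reductase of steroid metabolism. An intron of TBC1D5, a regulator of endosomal trafficking, held a region of 10206 bases. All 10 of the widest regions were listed as not changed by the authors.

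Most regions lay within a short distance of a shared peak. The gap to the nearest peak called in both groups had a median of 12.3 kb (quartiles 3.98 and 33.6 kb). It was at most 1 kb for 7.50% of the regions, at most 10 kb for 44.9% and at most 100 kb for 93.3%. The shCTRL-only regions had a median gap of 11.8 kb, with 11.0% within 1 kb. Regions called in both groups lay a median of 10.3 kb from another such peak, with 13.6% within 1 kb. Intergenic regions of the shZNF274-only set were nearer to a shared peak than intronic ones, at 11.3 against 13.5 kb.

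**Figure D1:**
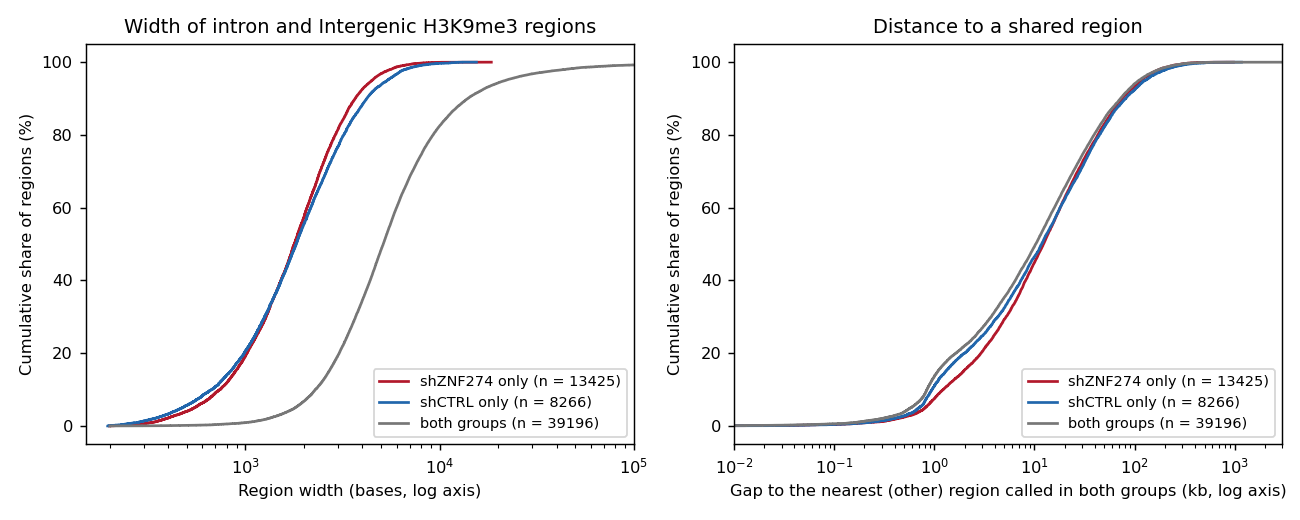
Cumulative share of regions (%) by width in bases (left) and by gap in kb to the nearest region called in both groups (right), both on log axes, for 13425 shZNF274-only, 8266 shCTRL-only and 39196 shared regions. The curves of the one-sided regions run together in width, with medians of 1783 and 1827 bases, and lie left of the shared regions at 5126 bases. All 3 gap curves lie close, with medians of 12.3, 11.8 and 10.3 kb.

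Neighbours along the chromosome were mixed. Both flanking peaks were shared for 5225 regions (38.9%), and neither was for 2019. At least 1 flank was another shZNF274-only peak for 44.1% of the regions. The shCTRL-only regions, which are fewer, had a flank of their own kind in 33.8% of cases.

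Of the 5 regions farthest from any shared peak, 3 lay in introns of long neuronal genes and 2 were intergenic. An intron of ERC2, a scaffold of the presynaptic active zone, held a region of 707 bases at 972.6 kb from the nearest shared peak. Introns of ROBO2, an axon guidance receptor, held regions of 2836 and 1281 bases at 783.7 and 635.6 kb. The intergenic ones had 550 bases on chromosome Y and 548 bases on chromosome 3, at 806.4 and 567.0 kb. ERC2 and ROBO2 had 0 counts in all 6 siRNA libraries of ASPC1. At the other end, 4 of the 5 regions nearest to a shared peak were separated from it by at most 4 bases, among them one in NKAIN2 on chromosome 6 and one in SPANXA2-OT1 on chromosome X.

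Linking regions at most 100 kb apart gave 6642 runs, of which 3766 held 1 region and 497 held 5 or more. The run with the most regions had 23 on chromosome 5 between 92253790 and 93040062, together with 34 shared regions and 4 of the shCTRL-only kind. A run of 22 regions on chromosome 10 (3921599 to 4579227) held 27 shared and 3 shCTRL-only regions. A run of 22 on chromosome 2 (11900634 to 12707579) held 33 shared and 3 shCTRL-only regions. No protein-coding gene of the count table overlapped any of the 3 runs, and they overlapped 7, 8 and 3 long non-coding RNA genes. A single region in them, on chromosome 10, was Up.

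The chromosomes differed in how many regions they gave. Over the genome there were 34.3 shZNF274-only regions per 100 shared ones and 1.62 per shCTRL-only region. Chromosome 2 held the most, 1342. Relative to shared regions, chromosome 6 (39.9 per 100) and chromosome 10 (39.2) were highest, and among the autosomes chromosome 18 (22.4) and chromosome 17 (26.0) were lowest. Set against shCTRL-only regions, chromosomes 11, 6 and 10 had ratios of 2.09, 2.09 and 2.07. Chromosomes 17 and 18 were the autosomes where shCTRL-only regions outnumbered them, with ratios of 0.768 and 0.927. Chromosome 15 (1.05) and X (1.03) were near equality. Copy number of these chromosomes in the hairpin cells was not analysed here, so its part in these ratios was not tested.

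Chromosome 19, the main home of zinc finger genes, held 120 of the regions and 360 shared ones. Its 33.3 per 100 was near the genome-wide value once ZNF genes were left out. The share in introns was 46.6% in all. It was 27.4% on X and 33.0% on chromosome 13, against 57.8% on chromosome 15.

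Host genes, those whose span shares at least 1 base with a region, numbered 3863 of the 36843 in the count table (10.5%), with 2219 protein-coding and 1644 long non-coding. They were long: the median was 132.5 kb against 15.6 kb for all genes. The share of genes that were hosts was 0.539% under 10 kb, 43.0% between 100 and 500 kb and 86.3% over 500 kb. Most hosts, 2505, held 1 region, and 226 held 5 or more. Shared regions lay in 72.3% of the hosts. Of the hosts, 1261 also held a shCTRL-only region, which is 32.6% of these hosts and 48.8% of the 2582 hosts of shCTRL-only regions. In 798 hosts no other peak of the deposited list was present.

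Genes with the most regions were long and mostly silent in ASPC1. MACROD2, an ADP-ribose hydrolase gene at a fragile site, spans 2057.8 kb and held 37 regions beside 69 shared and 10 shCTRL-only ones. CNTNAP2, a neurexin-family adhesion gene, held 29 beside 64 shared ones. The long non-coding genes MIR3681HG, PKN2-AS1 and LINC02240 held 21, 19 and 16. NRG3, a neuregulin ligand of ERBB4, held 16 beside 22 shared and 20 shCTRL-only regions, and CTNNA3, an alpha-catenin, held 14. Per Mb of gene, TEX41 had 25.1 regions and CTNNA3 had 7.56. MACROD2 counted 0.241, 0.159 and 0.497 CPM (counts per 1e6, scaled by edgeR's TMM factors) with siZNF274 and 0.376, 0.309 and 0.262 with siCTRL. These values overlap, and edgeR's quasi-likelihood test gave an adjusted p of 0.92.

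Gene lists gave the following counts. Of 40 long adhesion and fragile-site genes, 38 were hosts, with 221 regions, beside 86.3% hosts among all genes over 500 kb. The listed genes are well above that limit, at 886.6 kb or more (median 1355 kb). They also held 183 shCTRL-only regions and 558 regions called in both groups, the latter in all 40 genes. CSMD3, DLG2 and CDH18 held 11 each, and FHIT, a fragile-site gene, held 4. Of 24 genes for writing, reading and erasing H3K9me3, 3 were hosts: EHMT1, a methyltransferase, PPHLN1, of the HUSH complex, and ATF7IP, the partner of SETDB1. ZNF274 is also on that list, and the criteria keep it from being a host. Of 26 genes tied to plasticity in pancreatic cancer, 5 were hosts, among them TP63 with 8 regions, ABCG2, TWIST1 and ABCB1.

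Clustered gene families consist mostly of short genes, and their shares of hosts are given beside the 10.5% of all genes and the 0.539% of genes under 10 kb. Olfactory receptors (median length 2.55 kb) had 12 hosts of 392 genes (3.06%), and keratins and keratin-associated genes (1.18 kb) had 5 of 152 (3.29%). The longest genes of these families span 202.2 kb and 64.6 kb, and shared regions lay in 47 and 40 of their genes. Defensins had 1 of 44 (2.27%), taste receptors 1 of 24 (4.17%) and cancer-testis genes 0 of 93, with median lengths of 3.64, 1.06 and 6.50 kb. The taste receptor host, TAS2R14, is not short: it spans 234.2 kb, and 43.0% of genes between 100 and 500 kb were hosts. Genes with other zinc finger names (ZFP, ZSCAN and the like, median 19.0 kb) had 3 hosts of 60 (5.00%): PRDM9, ZFP64 and ZSCAN16-AS1. The last was matched by its name only and is an antisense gene. Clustered protocadherins had 33 hosts of 53, all of them in the alpha and gamma clusters, whose genes share their last exons. Those 33 spans rest on only 2 regions on chromosome 5, at 140944682 to 140946460 and 141444549 to 141445940, both listed as not changed.

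RNA-seq of other perturbations was the measurement that the choice of regions did not use. ZNF274 has to be read first. In ASPC1 it counted 16.6, 19.2 and 22.4 CPM in the libraries labelled siZNF274 and 15.8, 16.3 and 20.6 with siCTRL. The groups overlap, and the fitted log2 difference was 0.15 ± 0.11 (SE; adjusted p = 0.305, edgeR). CFPAC1 gave 32.6, 34.4 and 31.5 against 33.5, 34.0 and 35.7 (adjusted p = 0.423, edgeR). Below, siZNF274 stands for the libraries so labelled, and a direction given for them is that of the label. ZNF274 rose with OE, from 47.4, 50.4 and 49.4 to 133, 135 and 139 CPM, and with AZA in ASPC1, from 14.5, 12.3 and 14.3 to 20.1, 18.9 and 18.6 CPM (adjusted p = 0.00317, edgeR). ZNF274 itself cannot hold any of the regions, because the criteria leave out those over ZNF genes.

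Many hosts were too low to test. In ASPC1, 1468 of 3863 hosts (38.0%) passed the expression filter, against 43.9% of all genes. Among protein-coding genes the shares were 54.2% and 64.7%. In CFPAC1 1873 hosts and in Panc3.27 1690 hosts were tested. Epithelial markers of the tumour were all present in ASPC1 (6 of 6 at 1 CPM or more, summed level 6815 to 15046 CPM over the libraries), while the acinar markers CELA3A, AMY2A, CPA1 and PRSS1 were under 0.1 CPM. Of 4 leukocyte markers, 3 were under 0.1 CPM, PTPRC and CD3E among them, and 1, LYZ, was at 1 CPM or more, with a summed level of 86.2 to 281.8 CPM. Of 4 fibroblast markers, 1 was at 1 CPM or more (summed level 97.2 to 145.3 CPM), and the 3 endothelial markers summed to 0.400 to 1.40 CPM. The part of these markers in the results was not tested.

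With siZNF274 in ASPC1, 294 of the 1468 tested hosts rose (20.0%) and 400 fell (27.2%). Of all 16186 genes tested, 45.7% were called, 21.5% higher and 24.2% lower. The median log2 difference was -0.02 in hosts and 0.00 over all genes. With upper quartile scaling the balance turned, to 353 higher and 327 lower. Genes over 100 kb with no peak of the deposited list had 35.2% lower, and hosts over 100 kb had 28.4%. Hosts of shCTRL-only regions had 21.0% higher and 28.4% lower, close to the shZNF274-only hosts.

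AZA in ASPC1 gave 210 hosts that rose (14.3%) and 397 that fell (27.0%), while 35.8% of all genes were called, 17.2% higher and 18.6% lower. The share that fell was thus above that of all genes. It was 29.3% in hosts of shCTRL-only regions, 26.9% in hosts of shared regions and 30.6% in genes over 100 kb without any region. These hosts are of any length. Among hosts of shZNF274-only regions over 100 kb the share was 28.7%. In CFPAC1, AZA gave 159 higher (8.49%) and 464 lower (24.8%) of 1873 hosts, with 25.7% of all genes called, 12.2% higher and 13.5% lower. Long genes with no region gave 36.3% lower there, and hosts over 100 kb gave 29.5%.

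The CFPAC1 libraries labelled siZNF274 gave 249 hosts higher (13.3%) and 231 lower (12.3%), with 24.8% of all genes called, 11.6% higher and 13.2% lower. ZNF274 overexpression in Panc3.27 gave 378 of 1690 hosts higher (22.4%) and 224 lower (13.3%), with 36.9% of all genes called, 19.8% higher and 17.1% lower. Hosts of shCTRL-only regions gave 24.9% higher and 14.3% lower with OE. Of the 115 genes that host an Up region, 55 were tested in ASPC1, with 13 higher (23.6%) and 13 lower (23.6%) with siZNF274, where all genes gave 21.5% and 24.2%. With AZA there, 4 were higher (7.27%) and 19 lower (34.5%), where all genes gave 17.2% and 18.6% and long genes without any region 30.6% lower. In CFPAC1, 59 were tested. With siZNF274, 6 were higher (10.2%) and 5 lower (8.47%), where all genes gave 11.6% and 13.2%. With AZA, 4 were higher (6.78%) and 15 lower (25.4%), where all genes gave 12.2% and 13.5% and long genes without any region 36.3% lower. In Panc3.27, OE gave 14 higher (26.9%) and 5 lower (9.62%) of 52, where all genes gave 19.8% and 17.1%.

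**Figure D2:**
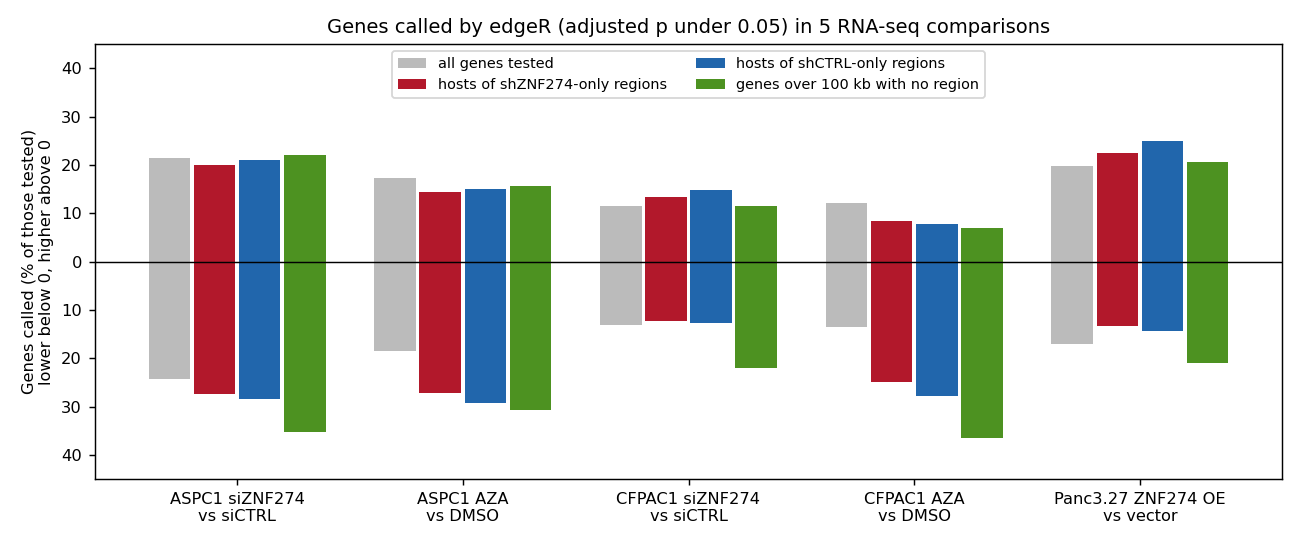
Share of tested genes (%) called higher (upward bars) or lower (downward bars) by edgeR in 5 RNA-seq comparisons. Sets are all genes, hosts of shZNF274-only regions, hosts of shCTRL-only regions and genes over 100 kb with no peak of the deposited list. Hosts are of any length. With AZA, 27.0% of ASPC1 hosts and 24.8% of CFPAC1 hosts were lower, against 18.6% and 13.5% of all genes and 30.6% and 36.3% of long genes with no region.

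Among hosts that rose with siZNF274 in ASPC1, RHOBTB1 counted 1.18, 1.12 and 1.05 CPM against 0.174, 0.232 and 0.0983. Its log2 difference was 2.67 ± 0.35 (SE; adjusted p = 1.58e-05, edgeR). The groups do not overlap, which the rule for naming genes by size required. The 1 region in its introns, of 553 bases on chromosome 10, is its only region of any of the 3 kinds. ETNK2, an ethanolamine kinase, rose from 0.637, 0.387 and 0.36 to 2.01, 2.17 and 1.77 CPM and likewise holds a single region, of 429 bases.

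MOXD1, a monooxygenase-like gene, rose from 0.029, 0.18 and 0.0655 to 0.589, 0.637 and 0.47 CPM (log2 2.52 ± 0.48, adjusted p = 0.000509, edgeR; log2 3.52 without siCTRL replicate 2). It holds 2 regions, and the one at 132335488 to 132337946 on chromosome 6 is Up in the authors' table. BACH2, a transcription repressor of lymphocytes, had 28 counts over the siZNF274 libraries and 3 over the siCTRL libraries. That is a ratio of 9.51 with a 95% exact binomial interval of 2.94 to 48.9, counting error only. Its fitted log2 difference was 3.06, and 3.92 without siCTRL replicate 1. NLRP1, an inflammasome sensor, rose from 0.029, 0.129 and 0.0328 to 0.321, 0.319 and 0.47 CPM (log2 2.41, and 3.46 without siCTRL replicate 2). DUSP5-DT and RP11-281P23.2, long non-coding genes with 2 and 4 regions, rose 5.48-fold and 7.02-fold. ABCA9, which has close paralogs beside it, rose 4.29-fold, but not past the threshold without siCTRL replicate 1, siCTRL replicate 2 or siZNF274 replicate 1, where the log2 difference was 1.55, 2.16 and 1.69. Without siCTRL replicate 3 it was 2.87.

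ABCA10, the host of the widest region, rose from 0.956, 1.13 and 1.31 to 2.38, 2.29 and 2.35 CPM with siZNF274, and its groups do not overlap. Regions cover 22.2% of its span. AKR1C2, reached by another of the widest regions, rose from 22.7, 25.5 and 23.6 to 39.3, 39.7 and 36.5 CPM. With AZA it rose from 22.3, 21.2 and 23.6 to 36.1, 46.8 and 35.8 CPM. AKR1C2 and ABCA10 have similar genes beside them, and sharing of reads with these was not measured. TBC1D5 stayed at 126, 124 and 125 against 121, 125 and 127 CPM (adjusted p = 0.923, edgeR).

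C4BPA, a subunit of the complement inhibitor C4b-binding protein, fell with siZNF274 from 0.84, 0.67 and 0.983 to 0, 0.191 and 0.0553 CPM (log2 -3.37 ± 0.52, adjusted p = 6.78e-05, edgeR). The log2 difference was -4.76 without siZNF274 replicate 2 and -2.76 without siZNF274 replicate 1. Its 2 regions, of 5462 and 1666 bases, cover 17.5% of the gene. ROS1, a receptor tyrosine kinase, fell from 4.29, 3.89 and 3.11 to 0.963, 1.21 and 1.11 CPM and also fell 2.63-fold with AZA. DMBT1, a mucosal scavenger receptor, fell from 0.637, 0.825 and 1.11 to 0.268, 0.223 and 0.111 CPM under a region of 5907 bases.

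NPSR1, the neuropeptide S receptor, hosts an Up region of 2576 bases on chromosome 7 (34841594 to 34844169) that also lies in NPSR1-AS1. NPSR1 fell from 22.8, 23.6 and 21.4 to 13.0, 15.3 and 12.5 CPM with siZNF274 and 1.28-fold with AZA, and NPSR1-AS1 fell 4.83-fold with siZNF274. The setting of strand in the counting is not given, so reads of the overlapping pair cannot be told apart. LINC02889 fell 3.80-fold and NWD1, an NACHT-domain gene, 3.55-fold. PDGFRL fell 6.32-fold, but not past the threshold without siCTRL replicate 1, whose 0.956 CPM stands above 0.284 and 0.262 (log2 -1.80). ADGRL3, a latrophilin receptor, fell 3.91-fold, but not past the threshold without siZNF274 replicate 1 (log2 -1.75) or replicate 3 (-1.56). Its log2 difference without replicate 2 was -2.83.

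**Figure D3:**
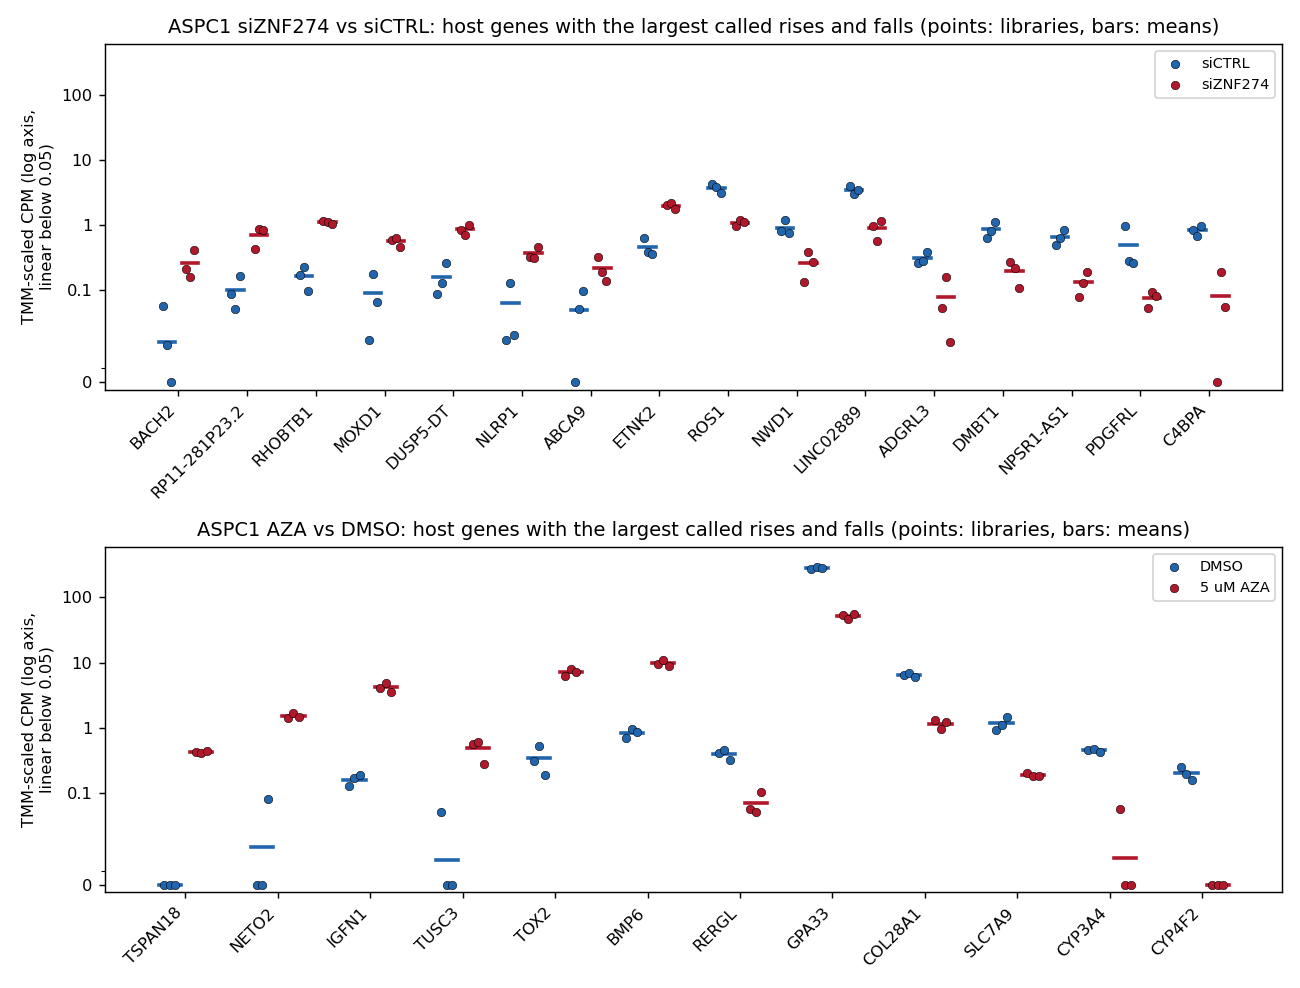
Level of each named host gene in every ASPC1 library, in TMM-scaled CPM on a log axis that is linear below 0.05, for siZNF274 against siCTRL (top) and AZA against DMSO (bottom), with 3 points a group and bars for the means. Genes were chosen so that the 3 libraries of one group all lie above the other 3. GPA33 has the highest levels, at 278, 298 and 288 CPM with DMSO.

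AZA in ASPC1 brought up hosts that were at or near 0 in DMSO. TSPAN18, a tetraspanin, had 0 counts in the 3 DMSO libraries and 48 with AZA, at least 16.1-fold higher against a floor of 3 counts over the group. NETO2, an auxiliary subunit of glutamate receptors, had 170 counts against 3, a ratio of 57.1 (exact binomial interval 19.2 to 279.7). TUSC3, an oligosaccharyltransferase subunit, had 54 against 2, a ratio of 27.2 (7.18 to 230.4). BMP6, a bone morphogenetic protein, rose from 0.69, 0.957 and 0.853 to 9.7, 11.1 and 8.9 CPM. The fitted log2 difference of NETO2 was 5.65, and 8.77 without DMSO replicate 3, and that of TUSC3 was 4.52, and 7.12 without DMSO replicate 1. TOX2 rose 21.0-fold and IGFN1 25.6-fold.

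CYP4F2, a fatty acid hydroxylase, went the other way, from 0.256, 0.197 and 0.16 CPM with DMSO to 0 in all 3 AZA libraries, or 23 counts to 0 and at least 7.61-fold lower. Its single region, of 445 bases on chromosome 19 (15895599 to 15896043), is Up, and the gene holds no shared or shCTRL-only region. With OE in Panc3.27 CYP4F2 rose from 0.106, 0.0494 and 0.121 to 0.469, 0.458 and 0.44 CPM. CYP3A4, a drug-metabolising enzyme, had 51 counts with DMSO and 2 with AZA, a ratio of 25.3 (6.65 to 214.5). Its fitted log2 difference was -4.42, and -7.05 without AZA replicate 1. CYP4F2 and CYP3A4 belong to families of similar genes, and sharing of reads within these was not measured. GPA33, an intestinal epithelial antigen, fell from 278, 298 and 288 to 54.7, 46.2 and 55.6 CPM, and with siZNF274 from 199, 218 and 215 to 79.4, 80.1 and 73.7. SLC7A9, COL28A1 and RERGL fell 6.19-fold, 5.56-fold and 5.30-fold.

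In CFPAC1 with siZNF274, ANXA13, an annexin, rose from 2.18, 1.17 and 1.14 to 12.5, 7.67 and 7.2 CPM, and IL1RL1, the interleukin-33 receptor, fell from 10.8, 11.2 and 11.2 to 2.62, 2.57 and 2.18. TP63, the squamous master factor with 8 regions, fell from 0.457, 0.351 and 0.45 to 0.0826, 0.119 and 0.192 CPM. In ASPC1 it fell from 0.84, 0.954 and 0.622 to 0.294, 0.191 and 0.359. In Panc3.27, where its level is far higher, OE moved it from 482, 437 and 421 to 782, 777 and 724 CPM. GNGT1, MYO3A and NWD1 passed the threshold in CFPAC1 (log2 2.67, 2.00 and -1.72). Each lost the call when single libraries were left out: GNGT1 without siCTRL replicate 2 (2.33) or siZNF274 replicate 1 (2.27), and MYO3A without siCTRL replicate 2 (2.17), siCTRL replicate 3 (1.49) or siZNF274 replicate 1 (1.67). NWD1 lost it without siCTRL replicate 1 (-1.78) or 2 (-1.52), or siZNF274 replicate 2 (-1.60) or 3 (-1.26). Without siCTRL replicate 1 GNGT1 and MYO3A stood at 3.61 and 2.62, and without siZNF274 replicate 1 NWD1 stood at -2.48.

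AZA in CFPAC1 raised DAZL, a germ cell RNA-binding protein, from 0 to 106 counts, at least 33.6-fold. ST8SIA6-AS1 and GDPD4 went from 0 to 49 and 39 counts, at least 15.5-fold and 12.4-fold. ABI3BP, an extracellular matrix protein, fell from 67.3, 73.8 and 56.3 to 13.5, 14.1 and 13.7 CPM, and MYO3B and LUZP2 fell 3.77-fold and 3.74-fold. With OE in Panc3.27, TRIM43, a gene with near-identical copies, rose from 0, 0.0741 and 0.0483 to 1.67, 1.16 and 0.908 CPM (log2 4.79, and 5.42 without vector replicate 2), and LINC02188 rose 4.37-fold. KANK4, AGPAT4 and LINC01060 fell 4.84-fold, 2.84-fold and 2.71-fold.

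Among listed hosts that write or read H3K9me3, PPHLN1 fell 1.14-fold and ATF7IP 1.15-fold with siZNF274 in ASPC1, and EHMT1 had 99.4, 93.5 and 96.4 against 99.6, 108 and 104 CPM (adjusted p = 0.0778, edgeR). Over the whole list of 24, 3 rose and 5 fell there, where 21.5% of all genes tested rose and 24.2% fell. Of the long adhesion genes, 9 were tested in ASPC1, with 1 higher and 2 lower with siZNF274 and 0 higher and 3 lower with AZA. In CFPAC1, 22 were tested, with 5 higher and 1 lower with siZNF274 and 2 higher and 8 lower with AZA. Of all tested CFPAC1 genes over 100 kb, 14.2% were higher and 15.4% lower with siZNF274. With AZA, 6.69% of them were higher and 32.0% lower. In ASPC1, genes over 100 kb gave 21.3% higher and 30.3% lower with siZNF274, and 15.2% and 30.7% with AZA. Of the 26 plasticity genes, 18 were tested in ASPC1, with 7 higher and 7 lower with siZNF274 and 5 higher and 8 lower with AZA, where all genes gave 17.2% higher and 18.6% lower. ABCG2, a drug efflux pump, rose 1.16-fold. The protocadherin PCDHGB1 fell from 5.76, 7.09 and 7.6 to 3.34, 4.05 and 3.57 CPM while PCDHGA5 rose 1.55-fold, and both spans hold the same region. ZFP64 fell 1.36-fold and ZSCAN16-AS1 rose 1.43-fold.

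Start windows under the regions were few, and the criteria leave out the authors' promoter class. Of 35116 RefSeq windows of 300 bases, from 250 before to 50 after the start, 55 lay wholly under a region. They had a median of 2 CG and 45.7% G and C, against 14 CG and 58.7% over all windows. The letters TATAAA, searched on both strands, were in 21.8% of them and 11.5% of all windows. Windows wholly under shared regions had 3 CG, 46.0% and 21.5%. CALCR, whose 20 CG are shown above, belongs to the 3 windows with 15 or more CG.

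The genes with printed start windows, SLC36A1, CALCR and RGS13, were chosen after their values were seen, and they differed in level. Levels of the other genes with a covered start are not given here. SLC36A1 counted 26.3, 26.3 and 26.0 CPM with siZNF274 and 23.7, 25.4 and 25.2 with siCTRL (adjusted p = 0.242, edgeR). Its RefSeq start lies under a region of 4015 bases that the authors class as intron. Counts are per gene, so they do not show which start its RNA came from. CALCR counted 2.09, 2.13 and 2.05 against 1.82, 1.37 and 1.93 CPM (adjusted p = 0.209, edgeR). RGS13 had 0 CPM in 5 of these 6 libraries and 0.029 in the other. These levels come from siRNA cultures and the regions from hairpin cultures.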

How the data were processed

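The deposited data are raw counts per gene for 30 libraries and 1 list of H3K9me3 broad peaks with positions, groups, classes, calls and a constant score. Per the submitters' processing notes, RNA reads were processed with STAR 2.7.10b on hg38, and CUT&RUN with Bowtie2, MACS2, HOMER, featureCounts and edgeR among others. No source used here gives the versions of the latter, how RNA reads were counted and with which strand setting, or if peaks came from single or pooled samples. Coverage of single CUT&RUN samples was not analysed here.

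The regions and gene lists were chosen with earlier results of these data known. Positions are 1-based. Genes, spans and types are those of the count table. Each line was fitted by itself (12, 12 and 6 libraries) with edgeR 4.0.16 in R 4.3.3: filterByExpr, TMM factors, quasi-likelihood test, Benjamini-Hochberg adjustment at 0.05 over all tested genes. The fit was tested on simulated data with 200 changed genes. Levels are TMM-scaled CPM, given per library, and folds come from the fit. The labels do not say whether the 3 libraries of a group were separate cultures beyond calling them biological triplicates, so a p-value reflects only how far these samples scatter. None of 30 within-group pairs of libraries were identical (chi-square per gene 2.44 to 21.2). Deviations of same-numbered libraries correlated above 0.1 in all 3 pairs only for siZNF274 in CFPAC1 (0.457, 0.144 and 0.132). Of those siZNF274 libraries, only replicate 1 correlated best with the siCTRL library of its own number. In ASPC1, all 3 AZA libraries correlated best with the DMSO library of their own number (0.149, 0.0179 and 0.207).

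Genes were named by rule: called, with groups that do not overlap, the largest 8 rises and 8 falls for siZNF274 and 6 and 6 for AZA in ASPC1, 3 and 3 in each other comparison, the 10 hosts with most regions, and up to 5 hosts a list at 1 CPM or more. Regions named were drawn from the 10 widest, the 5 nearest and 5 farthest, 3 runs and the widest Up regions, and not all of these are described. ERC2, ROBO2, ABCA10, AKR1C2, TBC1D5, NPSR1 and genes with a covered start are named as hosts of these or of printed sequences. SLC36A1, CALCR and RGS13 were chosen after their values were seen. RefSeq windows and hairpins are of GRCh38.p14, and 24492 of 24927 windows matched by symbol start within 1000 bases of the table's gene. Alternatives were RLE and upper quartile factors, no filter, DESeq2 1.42.0, a replicate block, leaving out each library, and other definitions of regions and hosts.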

Additional observations from a re-analysis of the deposited data

Results flagged for a closer look

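The same contrast was made in ASPC1 and CFPAC1, and for 19 named host genes the log2 difference itself differed between the lines in 1 edgeR interaction fit over both (adjusted p under the threshold in each). Values are the ASPC1 difference minus the CFPAC1 difference. The regions were called in ASPC1 alone, and the genes were named for large changes in 1 of the lines.

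With siZNF274, the gap was positive for RHOBTB1 (2.10), MOXD1 (2.16), DUSP5-DT (2.05), NLRP1 (1.96) and ETNK2 (1.74), which rose more in ASPC1. RHOBTB1, NLRP1, MOXD1 and ETNK2 also rose in CFPAC1. It was negative for C4BPA (-3.70), PDGFRL (-2.94), DMBT1 (-1.94), ADGRL3 (-1.47), LINC02889 (-1.29) and ROS1 (-1.54), which fell in ASPC1. LINC02889 and ADGRL3 also fell in CFPAC1. GNGT1 (-2.99) and ANXA13 (-2.79) rose in CFPAC1, and ANXA13 fell slightly in ASPC1.

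With AZA, the gap was positive for TSPAN18 (6.98), NETO2 (5.62), TUSC3 (4.27), TOX2 (3.78) and BMP6 (4.64) and negative for COL28A1 (-2.49). BMP6 rose in ASPC1 and fell in CFPAC1. TSPAN18, NETO2 and TUSC3 had 0, 3 and 2 counts over the ASPC1 DMSO libraries, so their fitted differences depend on the prior count and are no bounds.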

How the results depend on the processing

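Counts of hosts called stayed within 1.5 times under RLE or upper quartile factors, no filter, DESeq2, at least 50% of a region in the gene and regions of at least 1000 bases. Upper quartile factors shifted the median log2 difference of all genes by at most 0.05 and turned the balance of called hosts with siZNF274 in ASPC1 from 294 higher and 400 lower to 353 and 327. Restricting the regions to those called Up left 26, 23, 11, 19 and 19 called hosts (ASPC1 siZNF274, ASPC1 AZA, CFPAC1 siZNF274, CFPAC1 AZA, OE), by construction from far fewer hosts. Leaving out 1 library at a time gave 601 to 666, 511 to 595, 350 to 476, 472 to 627 and 492 to 595.

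The median gap became 12.8 kb to shared peaks of class intron or Intergenic and 9.91 kb to any peak called in shCTRL, and the median width 2064 bases among regions of at least 1000 bases. With a replicate block, 722, 647, 502, 641 and 613 hosts were called against 694, 607, 480, 623 and 602, and no call of a named gene was lost under the block. Of 500 pairs of a named gene and a setting, 485 kept direction and call, 15 lost the call when 1 library was left out, and none reversed. DESeq2 gave no adjusted p, and so no such pair, for NWD1, GNGT1 and MYO3A (CFPAC1 siZNF274), ST8SIA6-AS1 and GDPD4 (CFPAC1 AZA) and KANK4 (OE). Many named hosts lie below 2 CPM, which limits their precision.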
